A study of Mus musculus with 79 samples.

Results

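The Notch receptors, ligands and targets described here are 10 genes of 35230 in the expression table: the 4 receptors Notch1, Notch2, Notch3 and Notch4, the ligands Dll1, Dll3 and Jag1, and the transcriptional targets Hes1, Hey1 and Hey2. They were matched by symbol, and each matched 1 row. Transcripts were measured by strand-specific RNA sequencing after oligo-dT capture in 79 libraries from 4 mouse embryonic stem cell (ESC) lines. TET KO lacks Tet1, Tet2 and Tet3, the dioxygenases that oxidise methylated cytosine, and TET WT is its parental wild-type line. DNMT KO lacks the DNA methyltransferases Dnmt1, Dnmt3a and Dnmt3b, and DNMT WT is its own parental wild-type line. Every line was kept as ESCs in 2i/LIF (ESC D0), turned into epiblast-like cells for 1 or 2 days (EpiLC D1 and D2), or grown as embryoid bodies, three-dimensional aggregates that form early cell types, for 2, 4, 6 or 8 days (EB D2 to EB D8). The groups had 3 libraries each, except 5 with 2: TET KO EB D2, DNMT KO EB D2, DNMT WT EB D4, DNMT WT EpiLC D1 and DNMT WT ESC D0. Each genotype is 1 line, so an effect of the knockout and a property of that line cannot be told apart, and nothing in the labels says that libraries of a group came from separate cultures. P-values therefore measure the spread between these libraries, which may be technical.

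Notch receptors are single-pass membrane proteins that are cut when a Delta-like or Jagged ligand on a neighbouring cell binds them. The freed intracellular domain joins the DNA-binding protein RBPJ and Mastermind co-activators, and this complex turns on HES and HEY genes, which encode basic helix-loop-helix repressors. In the mouse embryo the pathway acts in somite segmentation, arterial endothelium, the heart and the first definitive blood stem cells. Its transcripts say which parts of the pathway a culture could use, not how much receptor was cleaved.

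RefSeq promoters on GRCm38.p6 were found for 8 of the 10 genes (Hes1 and Hey1 had no entry). Those of Hey2, Jag1 and Notch4 are shown because these 3 genes carried some of the widest differences between knockout and parental lines and differ in CpG content, the substrate of the enzymes that were removed. Each stretch holds 250 bases before the annotated transcription start and the first 10 bases after it, written 5′ to 3′ along the gene, with CpG dinucleotides in capitals.
Hey2, chr10:30842774-30843033, minus strand: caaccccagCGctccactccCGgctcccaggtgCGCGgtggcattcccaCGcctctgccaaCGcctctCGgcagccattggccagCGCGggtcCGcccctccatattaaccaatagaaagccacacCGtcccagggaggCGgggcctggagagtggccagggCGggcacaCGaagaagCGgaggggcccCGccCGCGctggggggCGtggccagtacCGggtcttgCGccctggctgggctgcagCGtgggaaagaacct
Jag1, chr2:137116511-137116770, minus strand: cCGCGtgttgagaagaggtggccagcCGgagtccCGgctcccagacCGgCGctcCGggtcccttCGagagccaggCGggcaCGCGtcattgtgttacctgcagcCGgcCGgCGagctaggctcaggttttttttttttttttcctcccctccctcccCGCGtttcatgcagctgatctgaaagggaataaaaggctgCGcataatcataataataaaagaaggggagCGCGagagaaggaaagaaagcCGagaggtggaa
Notch4, chr17:34564045-34564304, plus strand: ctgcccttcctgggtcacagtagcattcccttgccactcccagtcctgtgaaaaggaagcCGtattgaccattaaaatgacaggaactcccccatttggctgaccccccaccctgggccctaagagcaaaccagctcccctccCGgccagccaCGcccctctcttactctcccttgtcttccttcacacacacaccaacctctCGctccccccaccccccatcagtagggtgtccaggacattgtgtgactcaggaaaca
Over windows of 300 bases (250 before the start and 50 after), Hey2 had 29 CpG dinucleotides, Jag1 22 and Notch4 5, against a median of 7 over 32851 promoter windows of the genome. Among the members' 9 windows the count ran between 5 in Notch4 and 41 in Notch2. The core letters of the RBPJ motif, TGGGAA, were searched on both strands and stood in 1 of the 9 windows, that of Hey2, once on the printed strand 3 bases before the start and once on the other strand 207 bases before it. They occurred in 25.6% of all windows, so the match is a description of the letters. The letters CACGTG, an E-box, were in 0 of the 9 windows and in 7.15% of all windows.

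Depth recovered from the deposited values was 7762880 to 13885800 reads per library. The targeted genes were checked first. Dnmt1 stood at 3.63 to 6.49 RPKM (reads scaled to transcript length and library size) in the 20 DNMT KO libraries, against 39.4 to 63.2 RPKM in the 18 DNMT WT libraries, without overlap. Dnmt3a had a median of 2.49 RPKM in DNMT KO and 16.1 RPKM in DNMT WT, and Dnmt3b of 17.1 RPKM in DNMT KO and 86.5 RPKM in DNMT WT, both with overlapping ranges over the 7 conditions. The Tet genes also overlapped, with medians in TET KO and TET WT of 5.18 and 12.1 RPKM for Tet1, 2.95 and 3.05 RPKM for Tet2, and 1.24 and 1.20 RPKM for Tet3. Gene sums would not show a deletion of single exons, so Tet2 and Tet3 levels do not check the TET labels. The cells' labels were checked on 8 markers of naive pluripotency (Nanog, Esrrb, Klf2, Klf4, Tfcp2l1, Tbx3, Prdm14 and Zfp42), whose summed level was 1300 to 1420 RPKM in ESC D0 libraries of all 4 lines and at most 626 RPKM in every other library. One library stood apart, TET WT EB D4 replicate 2, in which 12.2% of reads fell on Gm42418, against at most 2.12% in any other library. The calls of TET KO against TET WT at EB D4 are therefore given with and without it.

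Levels differed widely between members. Hes1 was the most abundant, with group means between 6.49 and 41.1 RPKM, and Notch3, between 1.23 and 27.7 RPKM, had the highest mean of the 4 receptors in 25 of 28 groups. The exceptions were ESC D0 groups, with Notch1 highest in DNMT KO (4.45 RPKM) and DNMT WT (6.99 RPKM) and Notch2 in TET WT (2.86 RPKM). Hes1, Notch2 and Notch3 reached 1 RPKM in 28 of 28 groups, Notch1 in 26 and Jag1 in 25. Dll1 and Dll3 reached it in 17 groups each, Hey1 in 13, Notch4 in 9 and Hey2 in 6. The receptors Notch1, Notch2 and Notch3 were thus measurable in ESCs, EpiLCs and embryoid bodies alike, whereas Hey2 exceeded 1 RPKM in EB D6 and EB D8 libraries of 3 lines and in no group of DNMT KO. Coordinates are on GRCm38: Notch1 lies on chr2:26457903-26516663, Notch2 on chr3:98013527-98150361, Notch3 on chr17:32120820-32166880, Notch4 on chr17:34564268-34588503, Dll1 on chr17:15367354-15376872, Dll3 on chr7:28293553-28302238, Jag1 on chr2:137081456-137116644, Hes1 on chr16:30064384-30067796, Hey1 on chr3:8663359-8667256 and Hey2 on chr10:30832359-30842801. Notch1 shares its strand with Mir6996, and Notch2 with the predicted genes Gm42819 and Gm42820, so a few of their reads may belong to those.

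Differences were tested with limma on log2(RPKM + 0.5), a scale that understates changes of low genes. A gene was called where its adjusted p was below 0.05 and its log2 change was at least 1 in size. In TET KO against TET WT, 14 of 70 member tests were called, 12 higher and 2 lower, where 7.6% of all gene tests were called, 4.88% higher and 2.72% lower. Of all genes called, 64.2% were higher, against 51.8% with centred libraries and 51.5% with quantile normalization. By condition, these were 1 of 10 members at ESC D0 (6.78% of all genes called), 1 at EpiLC D1 (6.62%), 0 at EpiLC D2 (7.9%), 2 at EB D2 (7.41%), 4 at EB D4 (9.47%), 0 at EB D6 (5.02%) and, on the last day, EB D8, 6 (9.98%). The members' median log2 change at EB D8 was 0.99, against 0.11 over all genes tested, and at EB D4 it was 0.72, against 0.19. Without the TET WT library that stood apart, 3 members were called at EB D4 and their median was 0.64. When libraries were centred, the median of all genes shifted by -0.298 at EB D4 and -0.159 at EB D8, and the calls of Jag1 (0.76), Hes1 (0.99) and Hey2 (0.75) at EB D4, of Hes1 at EB D8 (0.87), of Hey1 at EB D2 (0.91) and of Jag1 at EpiLC D1 (-0.90) were lost. A pseudocount of 1 RPKM left 6 of the 14 calls, and among those lost were Dll3 at EB D2 (0.97) and EB D8 (0.82) and Dll1 at EB D8 (0.96).

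In DNMT KO against DNMT WT, 6 of 70 member tests were called, 1 higher and 5 lower, against 6.76% of all gene tests (4.05% higher and 2.71% lower), so the overall share was near the background. None of the 10 members (0 in each case) was called in the first 5 conditions, where 1.03% of all genes were called at ESC D0, 0.95% at EpiLC D1, 1.59% at EpiLC D2, 1.14% at EB D2 and 5.82% at EB D4. At EB D6 4 of 10 were called (17.9% of all genes), and at EB D8 2 of 10 (18.9%). The members' median log2 change at EB D6 was -0.33, against 0.04 over all genes, and at EB D8 0.15, against 0.01.

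**Figure D1:**
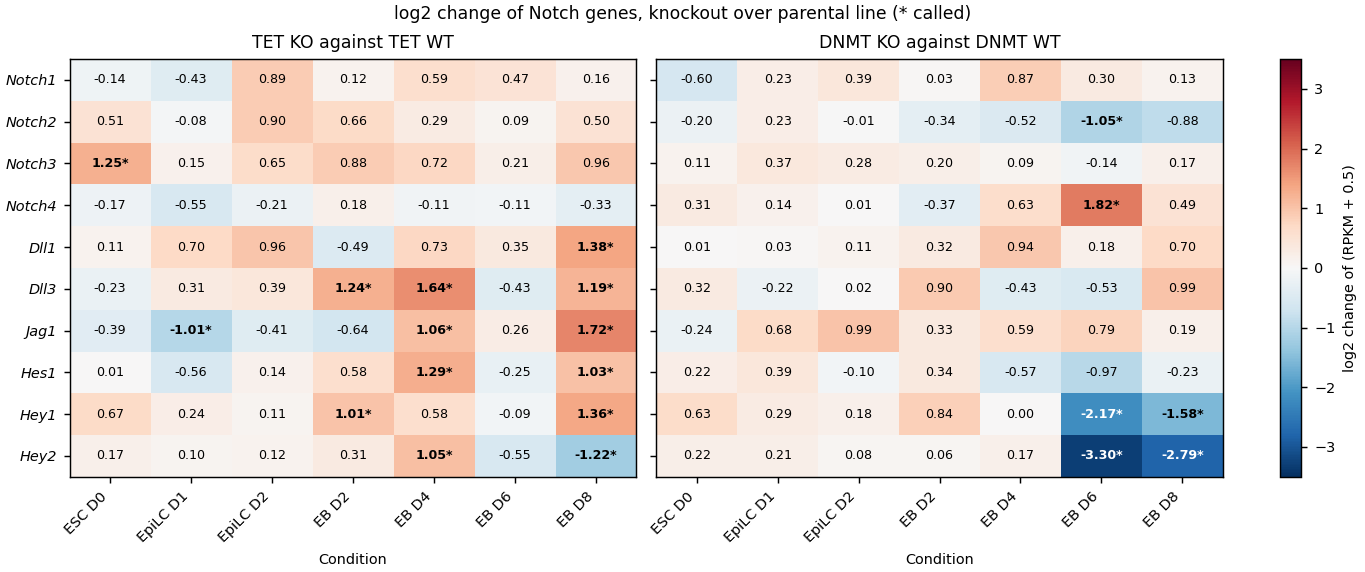
Log2 change of (RPKM + 0.5) of the 10 Notch genes (rows) at 7 conditions (columns), TET KO over TET WT on the left and DNMT KO over DNMT WT on the right; colour gives the size, and bold values with an asterisk were called. The called changes in DNMT KO stand at EB D6 and EB D8, with Hey2 the lowest at -3.30, and those in TET KO are mostly positive changes at EB D4 and EB D8.

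Differentiation itself moved the members in every line. Against ESC D0, 31 of 60 member tests were called in TET KO (23.2% of all gene tests), 29 in TET WT (22.7%), 26 in DNMT KO (19%) and 32 in DNMT WT (23.9%). Between consecutive days of differentiation, 11 of 40 were called in TET KO (8.6% of all gene tests), 12 in TET WT (10.2%), 7 in DNMT KO (3.3%) and 11 in DNMT WT (8.33%). The responses against ESC D0 differed between TET KO and TET WT in 12 of 60 member tests (7.96% of all gene tests) and between DNMT KO and DNMT WT in 9 of 60 (8.77%).

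Among the receptors, Notch3 rose most with differentiation in every line. At EB D8 its log2 change from ESC D0 was 2.22 ± 0.07 (SE) in TET KO, 2.52 ± 0.07 in TET WT, 2.32 ± 0.07 in DNMT KO and 2.26 ± 0.08 in DNMT WT. Notch2 also rose by EB D8, by 1.40 in TET KO, 1.41 in TET WT, 1.07 in DNMT KO and 1.74 in DNMT WT. At this step 28.1% of all genes tested were called in TET KO, 32.7% in TET WT, 23.8% in DNMT KO and 37.7% in DNMT WT. Notch1 fell on the way to EpiLC, to 0.65 ± 0.07 RPKM at EpiLC D1 in TET KO (SD, n = 3) and to 0.56 ± 0.20 RPKM at EpiLC D2 in TET WT, and averaged 2.69 RPKM in TET KO, 2.35 RPKM in TET WT, 6.0 RPKM in DNMT KO and 5.46 RPKM in DNMT WT at EB D8. Notch4, the receptor best known from endothelium, was at or below 2.5 RPKM in every group mean. Between ESC D0 and EpiLC D2 it fell in TET KO (-1.28), TET WT (-1.24) and DNMT KO (-1.28). In DNMT WT its change was not called. Its level there was 0.979 and 0.889 RPKM at ESC D0 and averaged 0.233 RPKM at EpiLC D2. The difference between the DNMT KO and DNMT WT responses was -0.31 and not called.

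**Figure D2:**
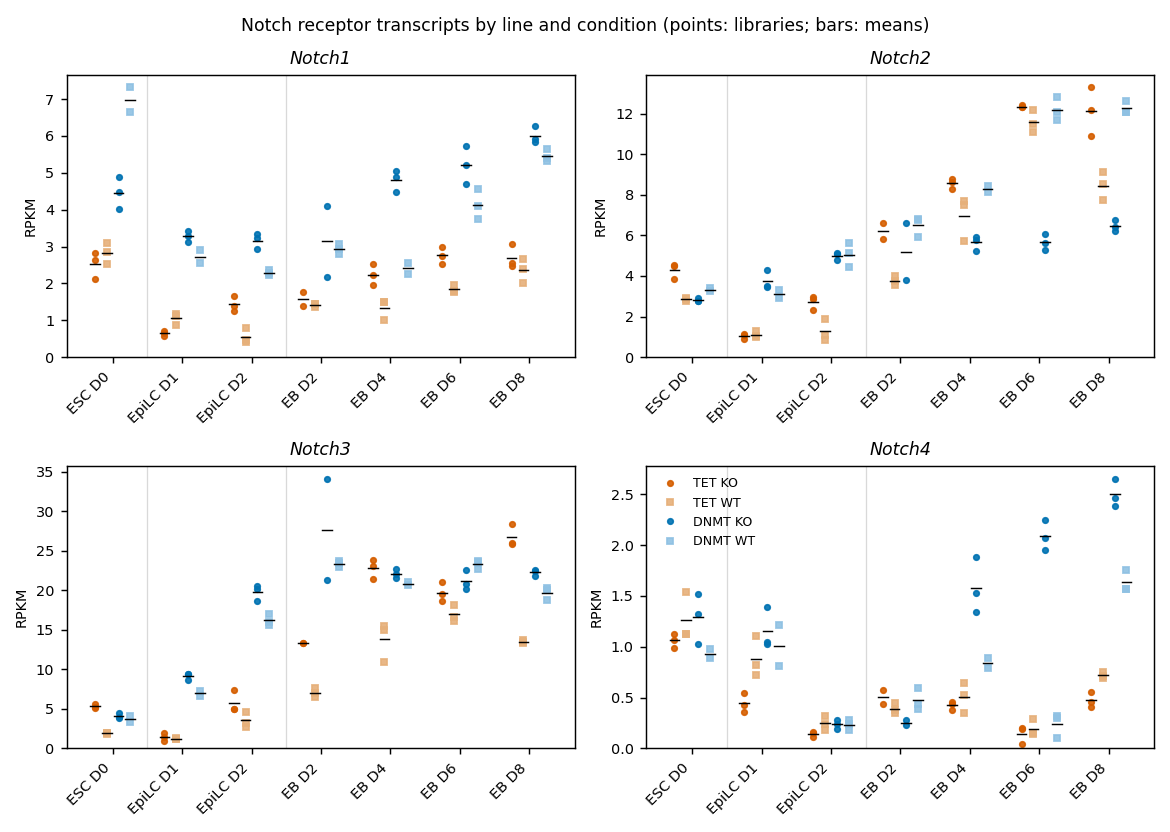
RPKM of the receptors Notch1, Notch2, Notch3 and Notch4 (y axes, linear, each with its own scale) at 7 conditions; each point is a library, circles for knockout and squares for parental lines, and black bars are group means. Notch4 in DNMT KO reaches 1.95 to 2.25 RPKM at EB D6, above every library of the other lines at that day, and Notch2 in DNMT KO has at most 6.77 RPKM in any library.

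Notch3 was higher in TET KO ESCs. Its level was 5.24, 5.68 and 5.10 RPKM in TET KO ESC D0, against 1.99, 2.02 and 1.83 RPKM in TET WT ESC D0. The groups did not overlap, and the log2 change was 1.25 ± 0.09 (adjusted p = 1.42e-06, limma). Its call held under all 8 alternative settings and without any 1 of 11 libraries. At EB D8 Notch3 was at 26.0, 28.4 and 25.9 RPKM in TET KO and 13.4, 13.7 and 13.5 RPKM in TET WT, also without overlap, yet its log2 change of 0.96 ± 0.05 lay under the size threshold (adjusted p = 5.52e-09) and passed it with quantile normalization (1.07). At the days between, Notch3 was called in no TET KO comparison. At EpiLC D2, Notch1 (0.89) and Notch2 (0.90) were likewise below a log2 change of 1 in TET KO.

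Notch4 and Notch2 were the receptors called in DNMT KO. Notch4 stood at 2.25, 2.07 and 1.95 RPKM in DNMT KO EB D6, against 0.299, 0.317 and 0.0993 RPKM in DNMT WT EB D6, and the groups were far apart. Its log2 change was 1.82 ± 0.15 (adjusted p = 3.27e-07). At EB D8 the DNMT KO libraries had 2.46, 2.65 and 2.39 RPKM and those of DNMT WT 1.57, 1.57 and 1.76 RPKM, a log2 change of 0.49 that was not called. Within DNMT WT, Notch4 rose between EB D6 and EB D8 (1.54 ± 0.12), whereas in DNMT KO its called step was earlier, between EB D2 and EB D4 (1.46 ± 0.15). Notch2 was at 6.07, 5.64 and 5.27 RPKM in DNMT KO EB D6 and 12.8, 11.7 and 12.1 RPKM in DNMT WT EB D6, without overlap. Its log2 change was -1.05 ± 0.06 (adjusted p = 9.55e-09), and -0.99 with a pseudocount of 1 RPKM. At EB D8 the Notch2 difference was -0.88 and not called. Notch1 and Notch3 were called in 0 of 7 DNMT KO comparisons each, with log2 changes of -0.60 to 0.87 for Notch1 and -0.14 to 0.37 for Notch3.

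Of the ligands, Dll1, which marks early neurogenic and presomitic cells, was almost undetected in ESCs, with at most 5 reads in any of the 11 ESC D0 libraries. In DNMT WT, where neither ESC library had a read, its mean of 10.4 RPKM at EpiLC D2 was at least 342-fold higher than a floor of 3 reads over the ESC group. Dll1 was highest at EpiLC D2 in both DNMT lines (11.4 RPKM in DNMT KO and 10.4 RPKM in DNMT WT) and at EB D2 in both TET lines (3.44 RPKM in TET KO and 5.03 RPKM in TET WT). It then fell between EB D2 and EB D4 in DNMT KO (-1.79), TET WT (-2.05) and DNMT WT (-2.41). In TET KO this step was -0.83, short of the size threshold (adjusted p = 0.00059, limma), and not called. Dll3, a divergent ligand used in the segmentation clock, peaked on different days. Its highest mean was at EB D4 in TET KO (8.05 RPKM) and at EB D2 in DNMT KO (6.39 RPKM). In TET WT (3.98 RPKM) and DNMT WT (5.69 RPKM) it was at EB D6. Between EB D6 and EB D8 Dll3 fell in TET WT (-2.60) and DNMT WT (-2.48). Jag1, the ligand of the vascular and cardiac outflow lineages, fell between ESC D0 and EpiLC D1 in TET KO (-2.05), TET WT (-1.43) and DNMT WT (-1.07), the last of these not without the unnumbered replicate of DNMT WT EpiLC D1 (-0.95), and was not called in DNMT KO, whose EpiLC D1 mean was 3.49 RPKM.

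Dll3 was called higher in TET KO at 3 of 7 conditions. At EB D2 it had 2.46 and 2.34 RPKM in TET KO, against 0.732, 0.378 and 1.19 RPKM in TET WT (log2 change 1.24 ± 0.24, adjusted p = 0.00323). At EB D4 it had 8.58, 6.98 and 8.60 RPKM in TET KO, against 2.71, 2.08 and 1.99 RPKM in TET WT (1.64 ± 0.15, adjusted p = 1.26e-07). The libraries of the groups did not overlap at either day, and without the TET WT library that stood apart the EB D4 change was 1.59. At EB D6 the order of the means was the opposite, 2.81 RPKM in TET KO and 3.98 RPKM in TET WT, with a log2 change of -0.43 that was not called. At EB D8 Dll3 had 1.47, 1.01 and 1.08 RPKM in TET KO, against 0.257, 0.188 and 0.257 RPKM in TET WT (1.19 ± 0.12, adjusted p = 3.49e-06). In DNMT KO the nearest Dll3 result was at EB D8, 0.99 ± 0.12, just below the size threshold and past it with a pseudocount of 0.1 RPKM (1.35) or centred libraries (1.03).

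Jag1 changed in both directions in TET KO. At EpiLC D1 it had 0.451, 0.246 and 0.308 RPKM in TET KO, against 1.06, 1.13 and 1.34 RPKM in TET WT. It was thus lower in TET KO by 1.01 on the log2 scale (adjusted p = 5.83e-05, limma). That call was lost without TET WT replicate 3 (-0.94), TET KO replicate 2 (-0.93) or TET KO replicate 3 (-0.99). At EB D8 it had 7.27, 7.84 and 7.07 RPKM in TET KO, against 1.87, 1.80 and 2.04 RPKM in TET WT. Every TET KO library was above every TET WT library, and the change of 1.72 ± 0.08 (adjusted p = 5.21e-09) held under all settings tried. At EB D4 it had 4.34, 5.45 and 5.57 RPKM in TET KO, against 2.73, 1.44 and 2.59 RPKM in TET WT. The lowest value belongs to the library that stood apart. The change of 1.06 ± 0.18 fell below the threshold without that library (0.82) and narrowly without TET KO replicate 3. The EB D4 call held under 4 of 8 alternative settings. In DNMT KO at EpiLC D2, Jag1 had 5.31, 5.82 and 5.09 RPKM, against 2.44, 2.26 and 2.72 RPKM in DNMT WT, a log2 change of 0.99 ± 0.16 that missed the size threshold (adjusted p = 0.0028). Relative to ESC D0, the Jag1 change at EpiLC D2 was 0.41 ± 0.14 in DNMT KO and -0.82 ± 0.16 in DNMT WT, neither past the size threshold. The difference of these 2 responses was called, at 1.23 ± 0.21 (adjusted p = 0.0016), as 1 of 10 members where 1.06% of all genes were called higher.

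Dll1 was called in TET KO at EB D8 alone. It had 1.33, 1.75 and 1.22 RPKM in TET KO, against 0.366, 0.236 and 0.135 RPKM in TET WT, which were 7 to 19 reads per TET WT library. The log2 change was 1.38 ± 0.20 (adjusted p = 6.13e-05). At EpiLC D2 Dll1 had 2.11, 1.96 and 1.59 RPKM in TET KO and 0.457, 0.833 and 0.923 RPKM in TET WT, a change of 0.96 that was not called, and at EB D2 the mean was lower in TET KO, by a log2 change of -0.49 that was not called either. In DNMT KO Dll1 was called in 0 of 7 conditions, and its change at EB D4, 0.94, passed the threshold with the replicate number as a block (1.03).

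**Figure D3:**
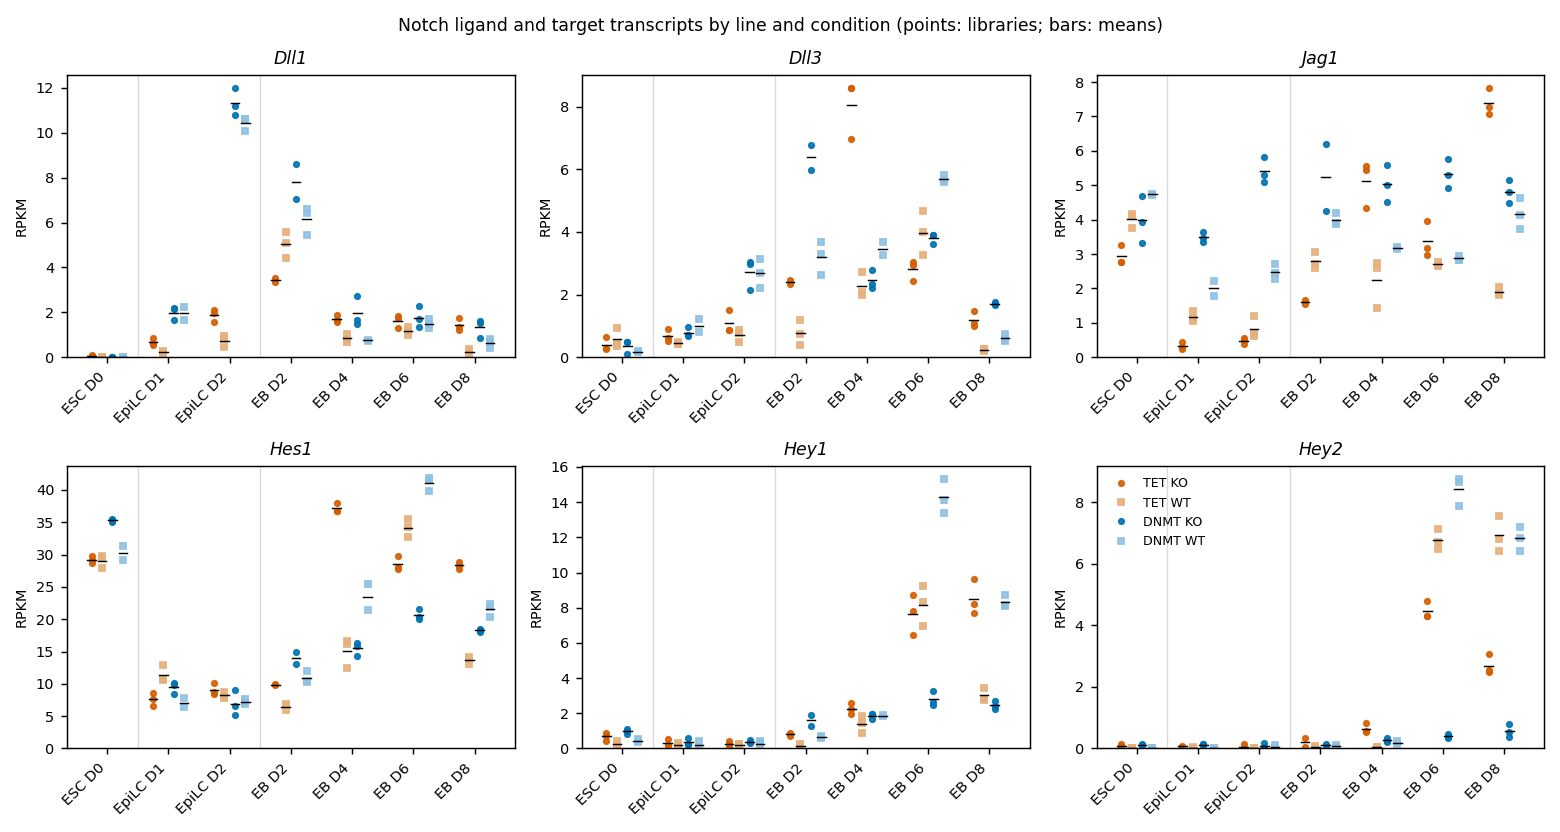
RPKM of the ligands Dll1, Dll3 and Jag1 (top) and of the targets Hes1, Hey1 and Hey2 (bottom) at 7 conditions, each panel with its own linear scale; each point is a library, circles for knockout and squares for parental lines, and black bars are group means. Dll1 is highest at EpiLC D2 in the DNMT lines, Jag1 is highest at EB D8 in TET KO, and Hey2 rises at EB D6 in 3 of the 4 lines.

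The 3 targets followed different courses. Hes1, which encodes an oscillating repressor present in ESCs, was high at ESC D0 in all 4 lines (29.2 RPKM in TET KO, 29.1 RPKM in TET WT, 35.3 RPKM in DNMT KO and 30.2 RPKM in DNMT WT) and fell by EpiLC D1, by 1.89, 1.31, 1.85 and 2.03 on the log2 scale in the same order of lines. It then rose between EB D2 and EB D4 in TET KO (1.86), TET WT (1.15, or 1.27 without the library that stood apart) and DNMT WT (1.06, or 0.95 without DNMT WT EB D4 replicate 2), and in DNMT KO this step was not called. Hey1 and Hey2, whose products act in arterial endothelium, the heart and smooth muscle, were low up to EB D2 and highest at EB D6 or EB D8. Between EB D4 and EB D6 Hey2 rose by 2.12 ± 0.11 in TET KO and 3.72 ± 0.11 in TET WT. In DNMT WT its rise was 3.70 ± 0.13. Before this step Hey2 had 28 to 41 reads per TET KO library, 0 to 3 in TET WT and 13 and 7 in DNMT WT. The sizes of the Hey2 rises are therefore set in part by the pseudocount. Hey1 rose by 1.56 ± 0.15 in TET KO, 2.22 ± 0.15 in TET WT and 2.64 ± 0.17 in DNMT WT. In DNMT KO 0 of 10 members were called in that step, where 1.34% of all genes were called, and the shares of all genes in TET KO, TET WT and DNMT WT were 9.22%, 14.5% and 12.8%.

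Hey2 and Hey1 were the members with the widest differences in DNMT KO. Hey2 had 0.345, 0.396 and 0.474 RPKM in DNMT KO EB D6, which were 17 to 22 reads, against 7.89, 8.67 and 8.75 RPKM in DNMT WT EB D6. At EB D8 it had 0.550, 0.780 and 0.380 RPKM in DNMT KO, against 6.84, 7.21 and 6.43 RPKM in DNMT WT. No DNMT KO library came near a DNMT WT library at either day. Hey2 was lower in DNMT KO by 3.30 ± 0.08 on the log2 scale at EB D6 (adjusted p = 5.02e-12, limma) and by 2.79 ± 0.13 at EB D8 (adjusted p = 7.46e-10). Across the alternative settings the EB D6 change ran between -4.39 and -2.75.

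Hey1 had 3.25, 2.67 and 2.48 RPKM in DNMT KO EB D6, against 14.1, 15.3 and 13.4 RPKM in DNMT WT EB D6. At EB D8 it had 2.68, 2.39 and 2.27 RPKM in DNMT KO, against 8.73, 8.07 and 8.17 RPKM in DNMT WT. The groups were separate at both days, with Hey1 lower by a log2 change of -2.17 ± 0.12 (adjusted p = 1.12e-08) and of -1.58 ± 0.10 (adjusted p = 1.27e-08). Hes1 had 21.6, 20.4 and 20.1 RPKM in DNMT KO EB D6 and 41.5, 39.9 and 41.9 RPKM in DNMT WT EB D6, also without overlap. Its change of -0.97 ± 0.05 (adjusted p = 1.76e-09) lay just under the size threshold and passed it when libraries were centred on their median (-1.01). At EB D8 Hes1 differed by -0.23 and was not called. The changes between ESC D0 and EB D6 were themselves lower in DNMT KO than in DNMT WT. The differences were -3.52 ± 0.14 for Hey2, -2.79 ± 0.24 for Hey1 and -1.19 ± 0.06 for Hes1 on the log2 scale. Of all genes, 7.77% were called lower. For Hes1 the 2 lines moved in opposite directions. From ESC D0, with 35.4, 35.5 and 35.1 RPKM in DNMT KO and 29.1 and 31.4 RPKM in DNMT WT, it fell in DNMT KO and rose in DNMT WT.

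In TET KO the targets moved otherwise. Hey2 had 2.54, 3.07 and 2.48 RPKM in TET KO EB D8, against 6.82, 6.42 and 7.55 RPKM in TET WT EB D8, and Hey1 had 8.23, 9.62 and 7.72 RPKM in TET KO, against 3.46, 2.77 and 2.84 RPKM in TET WT. The libraries were separate for both genes, and the signs were opposite. Hey2 was lower in TET KO by 1.22 ± 0.13 on the log2 scale (adjusted p = 3.9e-06, limma) and Hey1 higher by 1.36 ± 0.10 (adjusted p = 1.5e-07). Both calls held under all 8 alternatives and without any 1 library. Within TET WT, Hey1 fell between EB D6 and EB D8 (-1.29 ± 0.12) while this step was not called in TET KO. At EB D6 itself neither gene was called in TET KO, Hey2 with 4.31, 4.29 and 4.80 RPKM in TET KO and 6.49, 6.71 and 7.14 RPKM in TET WT (-0.55).

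Hes1 was higher in TET KO at EB D4 and EB D8. It had 38.0, 36.8 and 36.7 RPKM in TET KO EB D4, against 16.6, 12.5 and 16.1 RPKM in TET WT EB D4, and 28.9, 28.3 and 27.8 RPKM in TET KO EB D8, against 14.1, 13.9 and 13.0 RPKM in TET WT EB D8. The TET KO libraries were above the TET WT libraries on both days. Of 8 alternative settings, the EB D4 call held under 7 and the EB D8 call under 5. The changes were 1.29 ± 0.13 (adjusted p = 7.47e-07; 1.16 without the library that stood apart) and 1.03 ± 0.05 (adjusted p = 2.25e-09), the EB D8 call being lost without TET WT replicate 3 (0.99). Between these days the order turned, and at EB D6 Hes1 had 28.1, 27.7 and 29.8 RPKM in TET KO and 35.5, 32.8 and 34.2 RPKM in TET WT, a change of -0.25 that was not called. Hes1 in TET WT thus peaked at EB D6 and fell by EB D8 (-1.29 ± 0.04), whereas in TET KO its highest mean was at EB D4 (37.2 RPKM).

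Low levels lie behind 2 further calls in TET KO. Hey2 had 0.830, 0.546 and 0.563 RPKM in TET KO EB D4, or 28 to 41 reads, against 0.0638, 0.0252 and 0.0628 RPKM in TET WT EB D4, or 0 to 3 reads. Hey1 had 0.715 and 0.895 RPKM in TET KO EB D2, or 22 and 32 reads, against 0.203, 0.228 and 0.0260 RPKM in TET WT EB D2, or 1 to 9 reads. Both were above their parental libraries, yet the sizes, 1.05 for Hey2 and 1.01 for Hey1, are set by the pseudocount. With the reads recovered from the values and limma-voom the changes were 3.54 for Hey2 and 2.61 for Hey1, and with a pseudocount of 1 RPKM they were 0.64 and 0.65 and not called. Hey2 was at 1.02 without the TET WT library that stood apart. The Hey2 call was lost without TET KO replicate 1 (0.94), and the Hey1 call without TET WT replicate 3 (0.86) or TET KO replicate 2 (0.91).

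**Figure D4:**
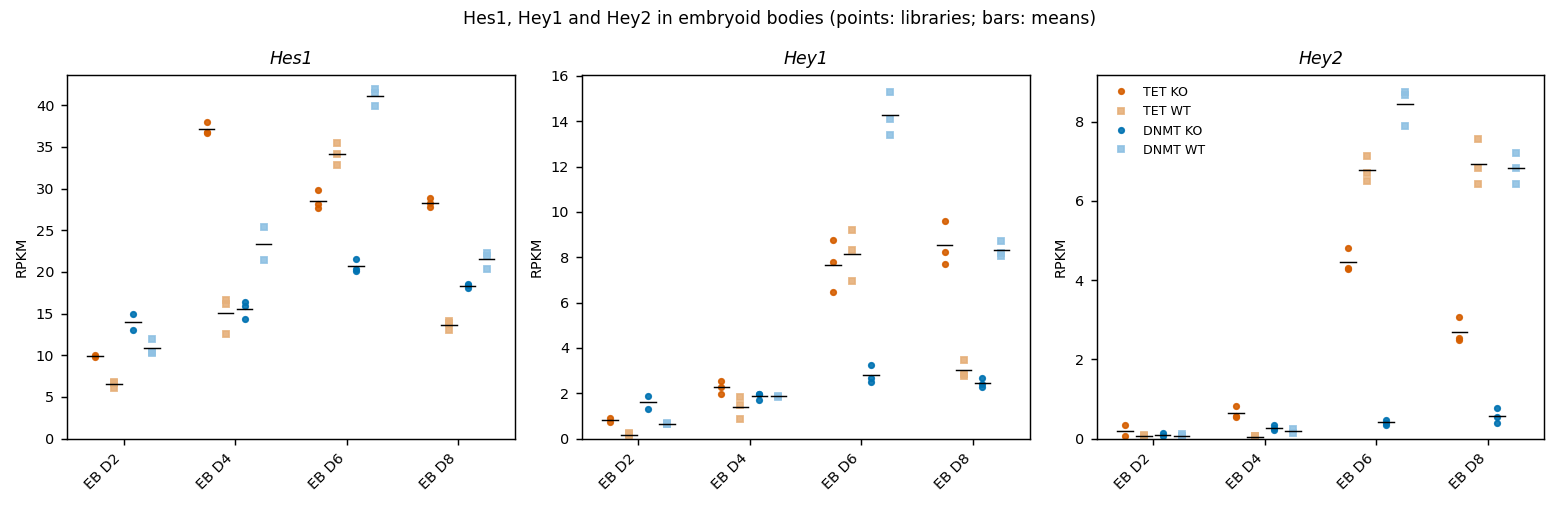
RPKM of Hes1, Hey1 and Hey2 in embryoid bodies at days 2, 4, 6 and 8 (x axes); each point is a library, circles for knockout and squares for parental lines, and black bars are group means. In DNMT KO (dark blue) Hey2 stays below 1 RPKM on all 4 days, and in TET KO (dark orange) at EB D8 Hey2 lies below and Hey1 above its parental line.

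The difference between the effects of the 2 knockouts was tested directly, as the DNMT KO change minus the TET KO change. It was called in 14 of 70 member tests, against 13.5% of all gene tests. At EB D8 it was called for Jag1 (-1.53), Hey1 (-2.94), Notch2 (-1.37), Hey2 (-1.57) and Hes1 (-1.25), so that 5 of 10 members had a lower effect in DNMT KO, where 11.7% of all genes were called lower. Hey2 at EB D8 was lower than in the parental line in both knockouts, by more in DNMT KO. Hey1 was lower than in the parental line in DNMT KO and higher in TET KO.

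The parental lines also differed from each other. DNMT WT was higher than TET WT in 15 of 70 member tests and lower in 0, where 7.79% of all gene tests were called in either direction, 4.34% higher and 3.45% lower. Of these, 6 were at EpiLC D2, where 12.5% of all genes were called higher: Dll1 (3.16 ± 0.15), Notch3 (2.07 ± 0.17), Notch2 (1.69 ± 0.18), Notch1 (1.42 ± 0.14), Dll3 (1.40 ± 0.20) and Jag1 (1.19 ± 0.16). Dll1 there had 10.6, 10.6 and 10.1 RPKM in DNMT WT, against 0.457, 0.833 and 0.923 RPKM in TET WT. The summed level of 6 formative and primed markers at EpiLC D2 (Otx2, Pou3f1, Fgf5, Sox3, Foxd3 and Dnmt3b) was 324 to 337 RPKM in DNMT WT and 70.3 to 88.8 RPKM in TET WT, with 6 of 6 at 1 RPKM or more in both, and the part of this in the member differences was not tested. The effect of each knockout is therefore taken against its own parental line, and the difference between the 2 effects draws on both parental lines.

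The embryoid bodies also differed in markers of the cell types they could hold, and in bulk RNA fewer cells of a type and less RNA per cell cannot be told apart. At EB D6 and EB D8 the 8 naive markers summed to 501 to 520 RPKM in DNMT KO on both days, against 59.4 to 64.9 RPKM at EB D6 and 43.7 to 49.4 RPKM at EB D8 in DNMT WT. Among them Nanog was at 119 RPKM in DNMT KO EB D6 and 16.2 RPKM in DNMT WT EB D6. Tbx3 went the other way, at 3.81 and 26.0 RPKM in the same groups. The 9 endothelial markers (Kdr, Cdh5, Pecam1, Tek, Tie1, Flt1, Esam, Cldn5 and Emcn) summed to 28.7 to 31.4 RPKM in DNMT KO EB D6 and 52.7 to 54.3 RPKM in DNMT WT EB D6, with 7 of 9 at 1 RPKM or more in each, though not the same 7. The means of single markers went both ways. Kdr was at 4.68 RPKM in DNMT KO EB D6 and 20.3 RPKM in DNMT WT EB D6, Flt1 at 1.86 and 7.75 RPKM, and Tie1 at 0.654 and 3.81 RPKM, whereas Pecam1 was at 7.96 and 5.73 RPKM and Cldn5 at 5.06 and 0.284 RPKM in the same groups. At EB D8 they summed to 82.9 to 86.8 RPKM in DNMT KO and 127 to 128 RPKM in DNMT WT. The 8 markers of the primitive streak and presomitic mesoderm summed to 37.6 to 42.7 RPKM in DNMT KO EB D6, with 5 of 8 at 1 RPKM or more, and to 134 to 146 RPKM in DNMT WT EB D6, with 8 of 8. Among them Mesp1 was at 2.32 RPKM in DNMT KO and 41.6 RPKM in DNMT WT, and T at 7.13 RPKM in DNMT KO and 33.1 RPKM in DNMT WT. The part of these markers in the lower Hey2, Hey1 and Hes1 of DNMT KO was not tested.

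Markers of mesenchyme and smooth muscle, lineages in which HEY genes are also used, summed to at most 48.4 RPKM in DNMT KO EB D6, with 5 of 7 at 1 RPKM or more, and to 81.5 to 93.3 RPKM in DNMT WT EB D6, with 7 of 7. Col1a1 alone was at 0.724 RPKM in DNMT KO and 41.2 RPKM in DNMT WT on that day. This gene held most of the gap between the EB D6 sums, which therefore does not describe the other markers of the list. At EB D8 the whole list summed to 56.9 to 63.7 RPKM in DNMT KO EB D8 and 310 to 320 RPKM in DNMT WT EB D8. Of its 7 markers, 7 were at 1 RPKM or more in both. The 6 cardiac markers summed to 9.22 to 13.0 RPKM in DNMT KO EB D8, with 2 of 6 at 1 RPKM or more, and to 90.0 to 137 RPKM in DNMT WT EB D8, with 6 of 6. In TET KO EB D8 mesenchymal markers summed to 146 to 164 RPKM and cardiac markers to 130 to 184 RPKM, against 327 to 378 RPKM and 33.8 to 39.8 RPKM in TET WT EB D8. The mesenchymal markers did not all move one way: Acta2 was at 37.3 RPKM in TET KO and 166 RPKM in TET WT, and Col1a1 at 7.14 RPKM in TET KO and 99.0 RPKM in TET WT, but Twist1 was at 87.2 RPKM in TET KO and 18.8 RPKM in TET WT. The 9 endothelial markers summed to 56.4 to 71.7 RPKM in TET KO EB D8 and 89.9 to 114 RPKM in TET WT EB D8, with 9 of 9 at 1 RPKM or more in both. Cdh5 was at 9.84 RPKM in TET KO and 26.4 RPKM in TET WT, and Kdr at 19.2 RPKM in TET KO and 18.3 RPKM in TET WT. The 6 visceral endoderm markers summed to 18.3 to 20.7 RPKM in TET KO EB D8, with 4 of 6 at 1 RPKM or more, and 770 to 892 RPKM in TET WT EB D8, with 6 of 6. The 7 blood markers summed to 15.1 to 26.0 RPKM in TET KO EB D8 and 7580 to 8250 RPKM in TET WT EB D8. Their part in the differences of Hey1, Hey2, Jag1 and Hes1 was not tested.

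At EB D4 the 8 markers of the primitive streak and presomitic mesoderm, a tissue in which Dll1, Dll3 and Hes genes are active, summed to 676 to 705 RPKM in TET KO and 31.7 to 46.8 RPKM in TET WT. Of the 8, 8 reached 1 RPKM in TET KO and 4 in TET WT, where Mesp1 was at 0. Without the library that stood apart the TET WT sums were 37.7 to 46.8 RPKM. At EB D2 the same markers summed to 9.81 to 10.3 RPKM in TET KO and 4.35 to 5.34 RPKM in TET WT, with 1 of 8 at 1 RPKM or more in both and Msgn1 at 0 in TET KO. Their part in the higher Dll3 and Hes1 of TET KO was not tested.

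**Figure D5:**
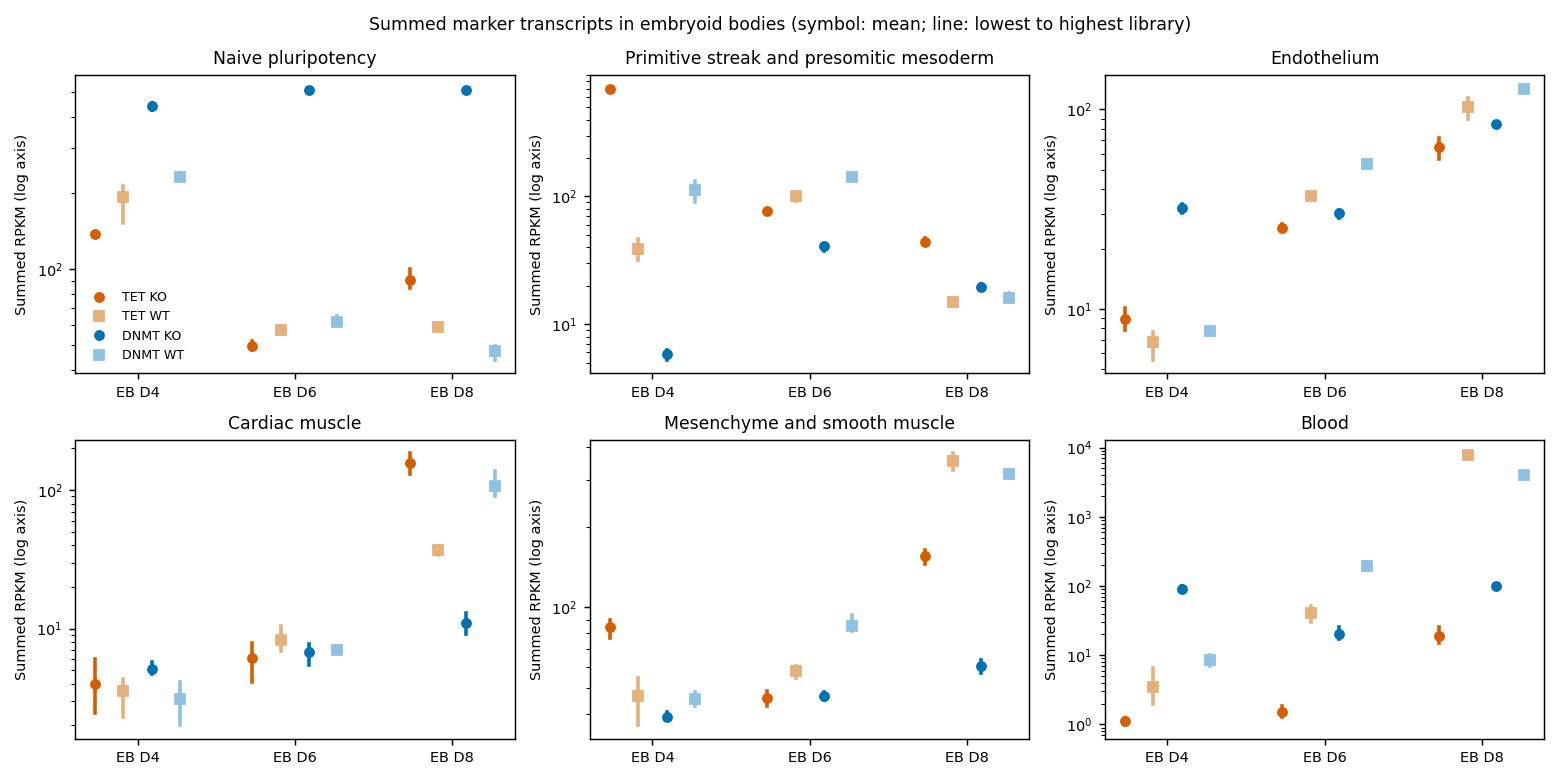
Summed RPKM (log axes) of 6 marker lists in embryoid bodies at days 4, 6 and 8, with the mean as a symbol, circles for knockout and squares for parental lines, and a line over the lowest to highest library. In DNMT KO the naive markers sum to 427 to 520 RPKM over these days, and TET KO at EB D4 has the highest streak and presomitic sum.

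Of 45 other genes of the pathway, 38 could be tested. In TET KO the counts of higher and lower genes were 1 and 0 at ESC D0, 0 and 1 at EpiLC D1, 2 and 0 at EpiLC D2, 2 and 1 at EB D2, 4 and 1 at EB D4, 1 and 0 on day 6, and 3 and 0 on day 8. At EB D4 they were 2 and 1 without the library that stood apart. In DNMT KO they were 0 and 1, 1 and 0, 0 and 1, 1 and 0, 3 and 1, 6 and 2, and 2 and 5 over the same conditions. Per condition, 2.63% to 13.2% of the 38 were called in TET KO, where 5.02% to 9.98% of all genes were. In DNMT KO 21.1% of the 38 were called at EB D6 and 18.4% at EB D8, close to the 17.9% and 18.9% of all genes. By EB D8, 14 of 38 were higher than at ESC D0 in TET KO, 10 in TET WT, 12 in DNMT KO and 16 in DNMT WT, where 18.4%, 20.3%, 16.8% and 23.3% of all genes were higher. In the same order of lines 2, 2, 1 and 3 of 38 were lower, and 9.67%, 12.4%, 6.92% and 14.4% of all genes.

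In DNMT KO, genes of ligands and regulators outside the 10 members changed most at EB D6 and EB D8. Dtx1, which encodes a ubiquitin ligase that binds Notch, averaged 14.1 ± 1.30 RPKM in DNMT KO EB D6 and 0.714 ± 0.01 RPKM in DNMT WT EB D6 (SD, n = 3 each), a log2 change of 3.59 ± 0.10. Jag2, the other Jagged ligand, averaged 12.6 ± 0.54 RPKM and 2.95 ± 0.50 RPKM in the same groups (1.93), and Mfng, a Fringe sugar transferase that modifies the receptors, 2.53 ± 0.64 RPKM and 0.267 ± 0.16 RPKM (1.99). Hes3, another HES gene, was higher at EB D4 (1.45, with 0.99 at a pseudocount of 1 RPKM). Dlk1, an imprinted non-canonical ligand, averaged 3.00 ± 0.29 RPKM in DNMT KO EB D8 and 51.0 ± 5.34 RPKM in DNMT WT EB D8 (-3.88 ± 0.09). The Mastermind co-activator Maml3 was lower at EB D6 (-2.04), and the Deltex gene Dtx3 (-1.39) and the endothelial ligand Dll4 (-1.26) were lower at EB D8.

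In TET KO, Dlk1 averaged 16.8 ± 0.93 RPKM at EB D6 and 4.31 ± 0.37 RPKM in TET WT EB D6 (1.84 ± 0.09), and Dtx1 was higher at EB D8 (1.80). Adam10, the protease that cuts a bound receptor outside the membrane, averaged 20.5 ± 0.51 RPKM in TET KO EB D4 and 8.26 ± 1.86 RPKM in TET WT EB D4 (1.29, 1.10 without the library that stood apart and 0.99 with centred libraries). Jag2 was higher at EpiLC D2 (1.22). Rbpj, the DNA-binding partner of every cleaved Notch, averaged 7.69 ± 0.78 RPKM in TET KO EB D2 (n = 2) and 20.8 ± 1.52 RPKM in TET WT EB D2 (n = 3). The log2 change was -1.38 ± 0.11 (adjusted p = 3.46e-05, limma). Dtx4 was lower at EB D4 (-1.04, or -1.31 without the library that stood apart), a call lost without TET WT replicate 1 (-0.90), TET WT replicate 3 (-0.92) or TET KO replicate 2, and was also lost with a pseudocount of 1 RPKM (-0.89).

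Across the 28 group means of log2(RPKM + 0.5), the genes whose pattern was most like Hey2 were Amer3 (Pearson r = 0.979), Foxf1 (0.975) and Lama4 (0.974). For Hey1 they were Mmp15 (0.964), Nkd1 (0.956) and Greb1 (0.949), and for Hes1 Sp5 (0.937), Slc39a1 (0.919) and Anp32a (0.885). Notch2 was most like Med12 (0.963), Notch3 like Ptprs (0.936), Notch1 like Mdm4 (0.857) and Notch4 like Sh3tc1 (0.861). Among the ligands, Dll1 was most like Tfdp2 (0.863), Dll3 like Cdca7l (0.847) and Jag1 like Phlpp1 (0.884). Between members, Hey1 and Hey2 correlated at 0.97 in TET KO, 0.901 in TET WT, 0.812 in DNMT KO and 0.963 in DNMT WT over 7 conditions each. Group means share libraries, depth and the course of differentiation, so these values describe likeness of pattern.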

How the data were processed

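The 79 libraries fall into 28 groups by the genotype and condition in their labels. The authors deposited their expression as log2 RPKM with GRCm38 coordinates. Trim Galore 0.6.1, cutadapt 1.18 and HISAT2 2.1.0 are named as tools, and GRCm38 as the build, per the submitters' processing notes. How reads were counted, and with which annotation, is not given in the sources used here. From 35269 entries 39 repeated identifiers were dropped. Low values lay on whole-read steps (97.1% of those between 1 and 100 reads within 0.1), giving depths of 7762880 to 13885800 reads. Zero reads are stored as 0.9 of a read. Of recovered counts of 1 to 20, 81.5% were odd, so reads may not be independent molecules. The length of Notch3 did not give whole reads.

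The 15267 genes that reached 1 RPKM in 2 or more libraries, all 10 members included, were tested as log2(RPKM + 0.5) with limma (version 3.58.1, R 4.3.3, trend and robust settings), after tests on simulated data. Knockout comparisons were fitted on the 4 lines at a condition, and comparisons between conditions on the 4 lines at both. Adjusted p-values are two-sided limma values with Benjamini-Hochberg adjustment across every gene tested. Calls required adjusted p below 0.05 with a log2 change of 1 or more in size. The members and lists were chosen with earlier results of these data known. Named genes outside the members were, per knockout, up to 4 called pathway genes with the highest and 4 with the lowest change. Likeness was ranked among tested genes whose highest group mean was at least 5 RPKM. Alternatives were pseudocounts of 0.1 and 1 RPKM, no filter, centred libraries, quantile normalization, limma-voom on recovered reads, a fit of the compared groups alone, a replicate block and leaving out each library.

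Correlations across genes within a group were at least 0.983, and no 2 replicates were merged. Chi-square per gene between the 74 replicate pairs was 2.18 to 153, or 1.09 to 76.5 if recovered reads come in pairs, where 1 is sampling noise, so it cannot be told how far the closest replicates differ beyond that noise. One column of DNMT WT EpiLC D1 fits its group but no sample label, and counts as an unnumbered replicate.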

Additional observations from a re-analysis of the deposited data

Results flagged for a closer look

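The results below differed between groups by a direct test of the difference (limma interaction terms, adjusted over all genes tested, adjusted p under 0.05 and a log2 difference of at least 1). All are differences on the log2(RPKM + 0.5) scale, and no explanation was tested.

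For the DNMT KO effect minus the TET KO effect, the difference was -1.14 for Notch3 at ESC D0 (-0.93 with quantile normalization). It was 1.69 for Jag1 at EpiLC D1 and 1.40 at EpiLC D2, and -1.53 at EB D8. At EB D4 it was -2.06 for Dll3 and -1.86 for Hes1 (-2.02 and -1.73 without TET WT EB D4 replicate 2, the library that stood apart). At EB D6 it was -2.08 for Hey1, -1.13 for Notch2, -2.75 for Hey2 and 1.93 for Notch4. At EB D8 it was -2.94 for Hey1, -1.37 for Notch2, -1.57 for Hey2 and -1.25 for Hes1. The 2 effects rest on separate parental lines, which themselves differed.

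For the response to differentiation (each condition against ESC D0), TET KO minus TET WT gave 12 differences among 60 member tests, against 7.96% of all gene tests. The count was 8 with quantile normalization, 10 with centred libraries and 6 with a pseudocount of 1 RPKM. The 12 differences included -1.11 for Notch3 at EpiLC D1 and -1.05 at EB D6, and 1.03 for Notch1 at EpiLC D2. The higher Notch3 of TET KO ESCs enters both of its values. Dll3 gave 1.48 at EB D2, 1.87 at EB D4 and 1.43 at EB D8. Jag1 gave 1.45 at EB D4 and 2.11 at EB D8, and Hes1 1.28 and 1.02 on the same days. Without TET WT EB D4 replicate 2 the EB D4 values were 1.83 for Dll3, 1.22 for Jag1 and 1.15 for Hes1. At EB D8 Hey2 gave -1.39 and Dll1 1.27 (0.98 and an adjusted p of 0.457 with limma-voom). The Notch3 value at EpiLC D1 fell short of the size threshold without TET KO EpiLC D1 replicate 2 (-0.90), and that at EB D6 without TET WT EB D6 replicate 1 (-0.99). Hes1 at EB D8 fell short without TET WT EB D8 replicate 3 (0.98) and narrowly without TET WT ESC D0 replicate 3. Notch1 at EpiLC D2 fell short without replicate 1 of TET KO ESC D0 (0.92), replicate 2 of TET KO EpiLC D2 (0.94), replicate 1 of TET WT ESC D0 (0.97), or replicate 1 (0.93) or 2 (0.98) of TET WT EpiLC D2.

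DNMT KO minus DNMT WT gave 9 differences among 60, against 8.77% of all gene tests. Jag1 gave 1.23 at EpiLC D2 and 1.03 at EB D6, and Notch1 1.47 at EB D4. The Notch1 value includes a lower level in DNMT KO at ESC D0, a difference that was not called itself. Notch1 there had 4.47, 4.01 and 4.88 RPKM in DNMT KO, against 7.32 and 6.65 RPKM in DNMT WT. At EB D6 Hey1 gave -2.79, Hey2 -3.52, Hes1 -1.19 and Notch4 1.51. At EB D8 Hey1 gave -2.21 and Hey2 -3.01. Jag1 at EB D6 fell short of the size threshold without replicate 2 of DNMT KO ESC D0 (0.92) or of DNMT KO EB D6 (0.97). Only 2 libraries stand behind DNMT WT at ESC D0, which all 9 share.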

How the results depend on the processing

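No called member result changed sign under any alternative tried. Of the 6 DNMT KO calls 5 were called under every setting, and of the 14 TET KO calls 5. With limma-voom on recovered reads the counts were 11 for DNMT KO against DNMT WT (6 before), 24 for DNMT WT against TET WT (15), 18 for TET KO consecutive steps (11) and 24 for the difference between the knockout effects (14). A pseudocount of 0.1 RPKM gave 23, 17 and 24 for the last 3 of these. A pseudocount of 1 RPKM gave 6 for TET KO against TET WT (14), 7 for TET KO steps and 6 for the TET response difference (12). Centred libraries gave 8 for TET KO against TET WT and 10 for the TET response difference. Quantile normalization gave 11 and 8 for these. The cause was not tested beyond the pseudocount's own construction, which shrinks changes of low genes.

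Leaving out each library in turn gave 13 to 17 calls in TET KO against TET WT, 6 to 7 in DNMT KO against DNMT WT, 14 to 16 in DNMT WT against TET WT, 14 to 16 in the difference between the knockout effects, 11 to 12 in the TET and 8 to 11 in the DNMT response difference. Against ESC D0 it gave 30 to 34 (TET KO), 29 to 30 (TET WT), 25 to 27 (DNMT KO) and 30 to 34 (DNMT WT). For consecutive steps it gave 10 to 12, 11 to 13, 7 in each case and 10 to 11 in the same lines. Where 1 library remained in a group, it was assumed to vary like the others.

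The replicate numbers share no stated culture or day, and deviations of same-numbered libraries correlated at -0.24 to 0.29 over 36 pairs of libraries, so they were not taken as pairs. With the replicate number as a block, 13 calls were made in TET KO against TET WT (Hey1 at EB D2 was lost, 0.94), 7 in DNMT KO against DNMT WT (Dll1 at EB D4 was added, 1.03), and 17 in the difference between the effects.

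Depth limits Hey2 most, with fewer than 10 reads in 34 of 34 ESC and EpiLC libraries, then Hey1 (15 of 34) and Dll1 (12 of 34).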
